A study of Mus musculus with 6 samples.

Results

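The cells described here are naive-like T cells of the CD4 lineage among the CD45+ immune cells of mouse liver with 4T07 metastasis. They were chosen on the deposited scaled values of each cell by 5 conditions. The mean of the T cell receptor genes Cd3e, Cd3g, Trac and Trbc2 was above 0.5, the mean of the naive T cell genes Lef1, Tcf7 and Ccr7 was above 1, and the mean of Cd8a and Cd8b1 was below 0.5. The mean of the regulatory and activation genes Ctla4, Tnfrsf4, Icos, Ikzf2 and Izumo1r was at most 1.5, and the B cell gene Cd79a was below 1. These conditions held for 576 of 23008 cells. Because these genes chose the cells, their values are given as a description and without a test.

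4T07 is a mouse mammary tumour line. Balb/c mice received the cells by intracardiac injection, either as control cells (Ctrl) or with an shRNA knockdown of Tim3, the product of Havcr2 (Tim3-KD). The knockdown is in the tumour cells and not in the T cells. Pieces of liver were taken at day 3 from micrometastasis and from adjacent tissue (AT), and at day 12 from macrometastasis, and CD45+ cells were sorted. This gave 6 libraries, 1 for each combination of site and tumour line, each from a pool of 2 mice. With 1 library per group there is no test within a site, and the intervals given below cover counting error only.

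A naive CD4 T cell has left the thymus and has not yet met its antigen. It keeps a resting state under the transcription factors Lef1 and Tcf7, it circulates through blood, lymph nodes and spleen, and it depends on interleukin-7 for survival. Ccr7 brings it into lymph nodes and S1pr1 lets it leave them. Naive cells also pass through the liver with the blood. Igfbp4, which encodes a binding protein of insulin-like growth factors, is a known marker of naive CD4 cells in mouse.

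The libraries held 35 of these cells in AT Ctrl and 44 in AT Tim3-KD. There were 126 in micrometastasis Ctrl, 56 in micrometastasis Tim3-KD, 154 in macrometastasis Ctrl and 161 in macrometastasis Tim3-KD. Their median depth was 7867 UMIs per cell in AT Ctrl and 13522.5 in AT Tim3-KD, and it lay between 3832.5 and 5310 in the other 4 libraries. The deepest library was thus also the one with the fewest cells in all, 542. No cell barcode of this class was shared with a cell of this class in another library, and 4 of them were found as a cell of another class in another library. Expression is given as CPM, the UMIs of a gene scaled to the sum of all UMIs of the cells.

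The label was checked against its markers. The genes are placed on GRCm38 with the GENCODE vM21 annotation. Cd4 (chromosome 6, 124864692 to 124888221, minus strand), the co-receptor that names the lineage, was not part of the rule. It was detected in 57.1% of the cells in AT Ctrl, 59.1% in AT Tim3-KD, 27.8% in micrometastasis Ctrl, 17.9% in micrometastasis Tim3-KD, 27.3% in macrometastasis Ctrl and 36.0% in macrometastasis Tim3-KD. In B cells, which should lack it, the share was 0% to 0.976% per library at median depths of 3580 to 9586 UMIs. The share in these cells was therefore above that of B cells in all 6 libraries. Naive-like CD8 cells, which met the naive condition but not the limit on Cd8a and Cd8b1, had Cd4 in 0% to 13.5% per library. The other T cells, neither naive-like nor regulatory or activated, had it in 8.85% to 22.7%. That range holds the 17.9% of micrometastasis Tim3-KD. After thinning every cell to 1500 UMIs the share in the class was 15.2%, 12.4%, 9.6%, 7.24%, 9.44% and 12.9% in the same order. Thinned shares were at most 4.2% in naive-like CD8 cells and 6.33% in the other T cells, below the class in every library. Cd8a and Cd8b1 had no UMI in any of the 576 cells, which the rule nearly fixes.

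Igfbp4 (chromosome 11, 99041244 to 99054392, plus strand) and S1pr1 (chromosome 3, 115710433 to 115715072, minus strand) were also outside the rule. Igfbp4 was detected in 68.6% and 52.3% of the cells in AT (Ctrl and Tim3-KD), in 57 of 126 and 14 of 56 in micrometastasis and in 44.2% and 47.2% in macrometastasis. Its share in B cells was 0.65% to 6.33%. S1pr1 was detected in 77.1% and 79.5%, in 54.8% and 19.6% and in 62.3% and 68.9%. B cells express S1pr1 as well and are no background for it. For both genes the lowest share was in micrometastasis Tim3-KD. Lef1 (chromosome 3, 131110471 to 131224356, plus strand), a gene of the rule, was detected in 77.8% to 88.6% of the cells.

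The rule asks for a mean over 3 naive genes, and a cell could pass it on 1 of them. In AT, 68.6% and 68.2% of the cells had UMIs of all 3 genes and 5.71% and 9.09% of only 1. In macrometastasis all 3 were present in 44.8% and 49.7% and only 1 in 13.0% and 13.7%. In micrometastasis Ctrl, 32.5% (95% interval 24.5% to 41.5%, exact Clopper-Pearson) had only 1. In micrometastasis Tim3-KD this share was 58.9% (45.0% to 71.9%), and 22 of the 56 cells passed on a single UMI.

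The cells that passed on 1 naive gene carried other genes than those with 2 or 3. In micrometastasis Tim3-KD, S1pr1 was detected in 3.03% of the 33 cells with 1 naive gene and in 43.5% of the 23 cells with 2 or 3. Nkg7, which encodes a cytotoxic granule protein, was detected in 69.7% against 26.1%, and Il2rb, the interleukin-2 and interleukin-15 receptor chain of effector and natural killer cells, in 81.8% against 17.4%. Ifng, the gene of interferon gamma, was detected in 48.5% against 4.35%. In micrometastasis Ctrl the same split gave 29.3% of 41 cells against 67.1% of 85 for S1pr1, 39.0% against 7.06% for Nkg7 and 26.8% against 1.18% for Ifng. In macrometastasis Tim3-KD, Ifng was in 45.5% of the 22 cells with 1 naive gene and in 2.88% of the 139 others. These shares are a description, since naive genes chose the cells. In micrometastasis Tim3-KD the values go against the label for a large part of the cells, and the values of its main genes are given below also for cells with 2 or 3 naive genes.

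**Figure D1:**
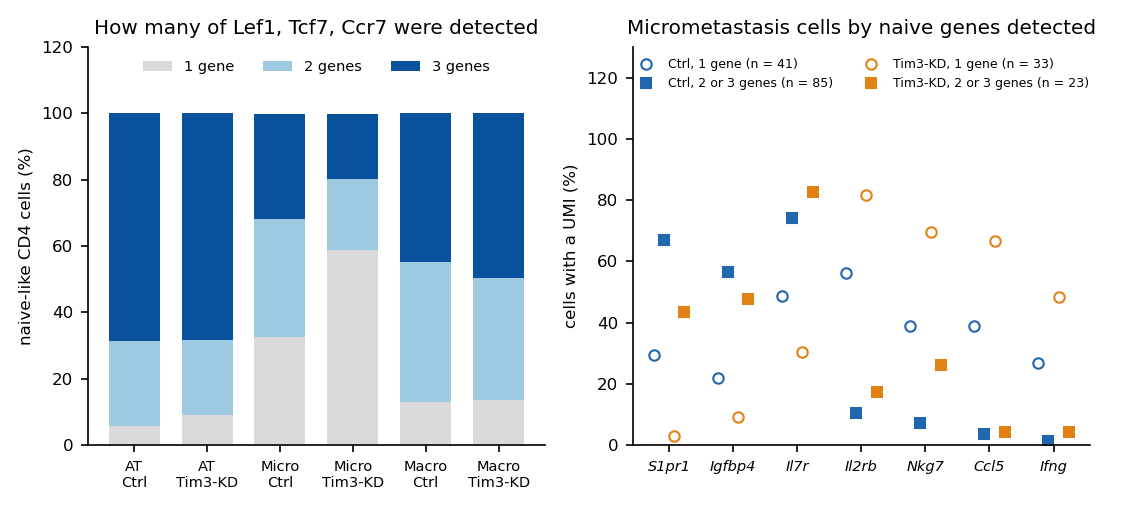
Left, the naive-like CD4 cells of each library (AT, adjacent tissue; Micro, micrometastasis; Macro, macrometastasis) split by how many of Lef1, Tcf7 and Ccr7 had a UMI, as a percent of the cells. Right, the percent of micrometastasis cells with a UMI of each gene, for Ctrl (blue) and Tim3-KD (orange) and for cells with 1 (open circles) or 2 to 3 naive genes (squares): S1pr1 and Igfbp4 were more often detected in cells with 2 or 3 naive genes, Il2rb, Nkg7, Ccl5 and Ifng in cells with 1.

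The class is a range and not a sharply bounded type. On the mean of the naive genes, 40 of the cells lay within 0.25 above the threshold of 1 and 47 otherwise matching cells lay within 0.25 below it. The nearest values were 1.02 inside and 0.99 outside. For the receptor genes they were 0.514 and 0.499, for the regulatory and activation genes 1.49 and 1.5, for Cd79a 0.986 and 1.04, and for Cd8a and Cd8b1 0.264 and 0.931.

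The first comparison asks how frequent these cells were around tumour cells with and without the knockdown of Tim3. In AT they made up 1.94% of all cells in Ctrl (35 of 1803, 95% interval 1.36% to 2.69%) and 8.12% in Tim3-KD (44 of 542, 5.96% to 10.7%), a difference of 6.18 percentage points (95% interval 3.89 to 8.87). In micrometastasis they made up 2.47% in Ctrl (126 of 5106) and 1.09% in Tim3-KD (56 of 5142), a difference of -1.38 points (-1.91 to -0.858). In macrometastasis they made up 3.13% in Ctrl (154 of 4913) and 2.93% in Tim3-KD (161 of 5502), a difference of -0.208 points (-0.887 to 0.463). The share was thus higher with Tim3-KD in adjacent tissue and lower in micrometastasis, and in macrometastasis the interval of the difference held 0.

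Among T cells the order was the same. The cells were 19.9% of 176 T cells in AT Ctrl and 35.8% of 123 in AT Tim3-KD. They were 28.2% of 447 and 14.5% of 385 in micrometastasis and 32.5% of 474 and 28.2% of 570 in macrometastasis. The differences were 15.9 points (5.13 to 26.6) in AT, -13.6 (-19.2 to -7.95) in micrometastasis and -4.24 (-9.99 to 1.48) in macrometastasis. With cells of only 1 naive gene left out, the differences in the share of all cells were 5.55, -1.22 and -0.201 points. With cells without a Cd4 UMI left out they were 3.69 (1.94 to 5.88), -0.491 (-0.776 to -0.227) and 0.199 (-0.192 to 0.587).

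Other lymphocytes also differed between the libraries. T cells as a whole, the class included, were 9.76% and 22.7% of the cells in AT, 8.75% and 7.49% in micrometastasis and 9.65% and 10.4% in macrometastasis. Those T cells that were neither naive-like nor regulatory or activated numbered 88 and 43 in AT, 192 and 233 in micrometastasis and 195 and 245 in macrometastasis, and thus did not follow the class in micrometastasis. Naive-like CD8 cells, which met the naive condition but not the limit on Cd8a and Cd8b1, did move with the class there. Micrometastasis Ctrl held 50 of them and micrometastasis Tim3-KD 26. AT Ctrl held 16 among 1803 cells and AT Tim3-KD 17 among 542. Macrometastasis Ctrl held 52 and macrometastasis Tim3-KD 62. The lower number in micrometastasis Tim3-KD was thus not particular to the CD4 class. B cells numbered 682 in micrometastasis Ctrl and 79 in micrometastasis Tim3-KD at nearly equal numbers of cells. As a share of T and B cells together, the class differed between Tim3-KD and Ctrl by 0.909 points (-2.54 to 4.67) in micrometastasis, by 5.88 (1.2 to 10.8) in AT and by 0.562 (-2.45 to 3.57) in macrometastasis. The direction in micrometastasis therefore depends on whether B cells are counted in the denominator. The part of the B cell numbers in these shares was not tested.

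Between the Ctrl libraries the share of all cells differed by 0.526 points (-0.326 to 1.27) from AT to micrometastasis and by 0.667 points (0.0072 to 1.33) from micrometastasis to macrometastasis. With cells of only 1 naive gene left out, the first turned to -0.166 (-0.968 to 0.523) and the second was 1.06 (0.477 to 1.66). With cells without a Cd4 UMI left out they were -0.424 (-1.06 to 0.0825) and 0.169 (-0.188 to 0.533). Calling the cells on UMIs gave 0.0632 and 1.26. Among T cells the Ctrl shares were 19.9%, 28.2% and 32.5%, with differences of 8.3 points (0.459 to 15.5) and 4.3 points (-1.79 to 10.3). Macrometastasis differs from the others both in site and in day, and these cannot be told apart.

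**Figure D2:**
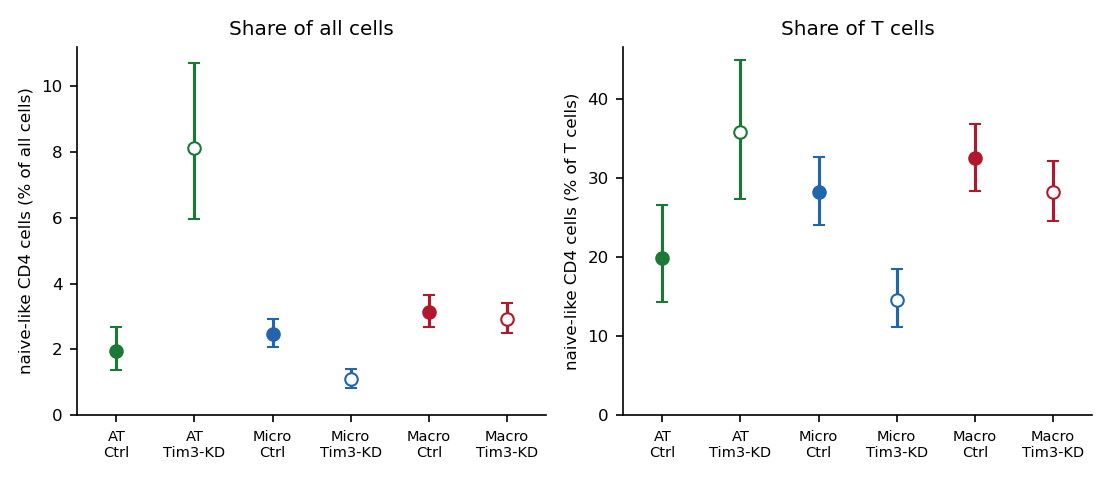
Naive-like CD4 cells as a percent of all cells (left) and of T cells (right) in each library, Ctrl filled and Tim3-KD open, with exact 95% binomial intervals that cover counting error only. The AT Tim3-KD library was highest in both panels, at 8.12% and 35.8%, and micrometastasis Tim3-KD lowest, at 1.09% and 14.5%.

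The next comparisons set the class against other T cells of the same libraries. The libraries served as the replicates, with both classes of a library paired, and the test was limma with a trend, adjusted by the Benjamini-Hochberg method over all genes tested. The genes of the rule were left out. The rule cut the classes apart in the same cells, so genes that vary with the rule genes were bound to differ to some extent, and the tests describe how steady a difference was over libraries that differ in site, day and tumour line.

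Igfbp4 was higher in the class than in each other group of T cells within every library. Its level was 302 CPM in AT Ctrl, 184 in AT Tim3-KD, 221 in micrometastasis Ctrl, 96.8 in micrometastasis Tim3-KD, 175 in macrometastasis Ctrl and 221 in macrometastasis Tim3-KD. Naive-like CD8 cells were T cells that met the same naive condition, with a mean of Cd8a and Cd8b1 of at least 0.5. The limit on the regulatory and activation genes was not applied to them, so the 2 classes were not matched on activation. In them Igfbp4 was at 20.6 to 44.5 CPM in the 4 libraries with at least 20 such cells. The 2 classes did not overlap in these libraries. In AT, with 16 and 17 such cells and outside the test, it was 63.2 CPM in Ctrl and 107 in Tim3-KD, the latter above the class in micrometastasis Tim3-KD. The difference was 2.27 on the log2 scale (SE 0.24, limma adjusted p = 0.0148, higher in 4 of 4 libraries). Against regulatory or activated CD4 cells it was 3.63 (SE 0.47, limma adjusted p = 0.0036, higher in 5 of 5), and against the other T cells 3.51 (SE 0.49, limma adjusted p = 0.00191, higher in 6 of 6).

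S1pr1 was at 288, 189, 189, 84.2, 235 and 283 CPM in the same order of libraries. The other T cells held 4.53 to 43.7 CPM, so the groups did not overlap, and the difference was 3.85 on the log2 scale (SE 0.30, limma adjusted p = 9.58e-05, higher in 6 of 6 libraries). In regulatory or activated CD4 cells the level was 149 to 168 CPM and overlapped that of the class. That difference, 0.33 (SE 0.27), and the one against naive-like CD8 cells, 0.80 (SE 0.31), did not pass (limma adjusted p = 0.49 and 0.245).

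Il7r, the receptor chain for interleukin-7, was at 369 and 344 CPM in AT, 483 and 429 in micrometastasis and 468 and 557 in macrometastasis. As a ratio, its highest and lowest library lay closer together than those of Igfbp4, S1pr1 and Cd4. In the other T cells it was 40.3 to 143 CPM, a log2 difference of 2.36 (SE 0.30, limma adjusted p = 0.00169, 6 of 6 libraries). Against regulatory or activated CD4 cells the difference was 0.64 (SE 0.15, limma adjusted p = 0.0381, 5 of 5).

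Cd4 itself was at 108, 96.0, 56.8, 46.3, 63.6 and 85.6 CPM. The level exceeded that of the other T cells by 1.67 on the log2 scale (SE 0.24, limma adjusted p = 0.00191, 6 of 6 libraries). Regulatory or activated CD4 cells held 81.7 to 121 CPM, and the difference of -0.55 (SE 0.21) did not pass (limma adjusted p = 0.144). Against naive-like CD8 cells it was 2.08 (SE 0.55) and did not pass either (limma adjusted p = 0.106, higher in 4 of 4 libraries).

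**Figure D3:**
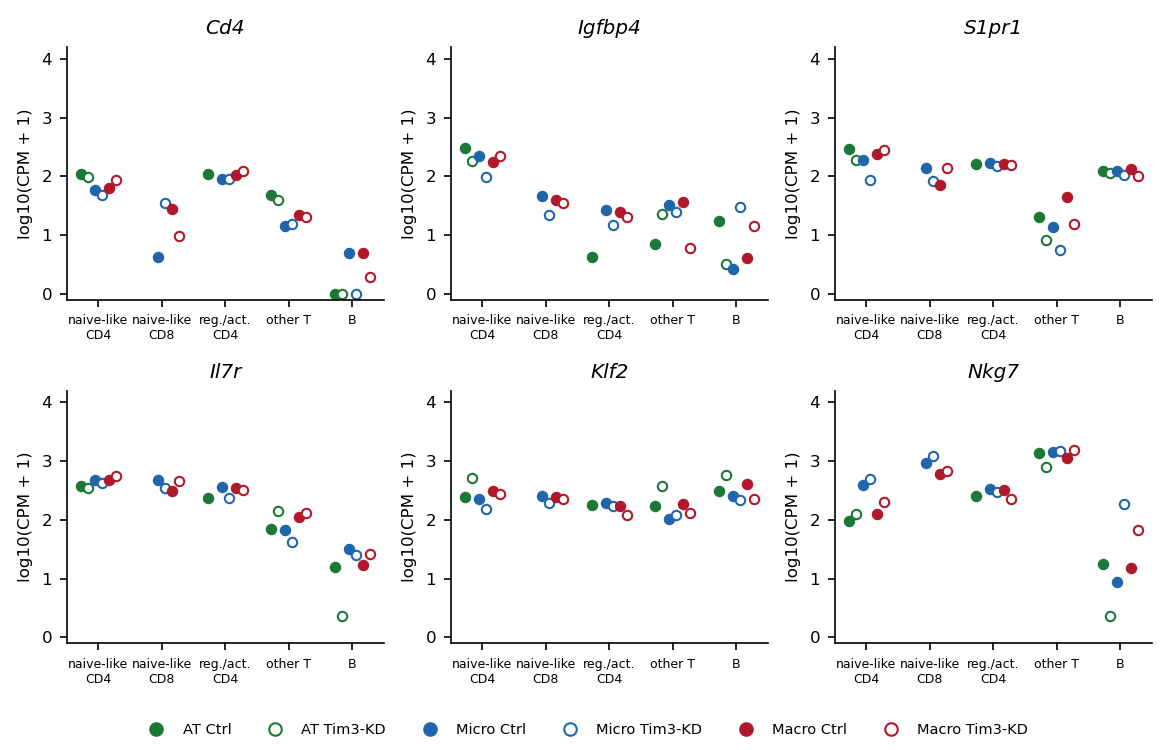
Level of 6 genes as log10 of CPM plus 1 in naive-like CD4 cells, naive-like CD8 cells, regulatory or activated CD4 cells (reg./act.), the other T cells and B cells, 1 point per library with at least 20 cells of the class (AT green, micrometastasis blue, macrometastasis red; Ctrl filled, Tim3-KD open). Igfbp4 was highest in naive-like CD4 cells, S1pr1 was at 4.53 to 43.7 CPM in the other T cells, and Nkg7 ran the opposite way, at 790 to 1531 CPM in the other T cells.

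Against naive-like CD8 cells 865 genes were tested in 4 libraries. Few differed. In the naive-like CD4 cells 4 genes were higher and 11 lower (0.462% and 1.27% of those tested, together 1.73%). Beside Igfbp4 the higher ones were Ccl6 (2.79), a chemokine gene usually read in myeloid cells, Tmem64 (1.93) and Trib2 (1.84), which encodes a pseudokinase. The lowest were Klrc2 (-2.68), a natural killer receptor gene, the transcription factor genes Runx2 (-2.41) and Nr4a2 (-2.18), and Cxcr3 (-1.86). Of the 23 effector and memory genes tested 6 were lower, among them Nkg7 (-1.65, SE 0.20, limma adjusted p = 0.0177) and Ccl5 (-1.53, SE 0.21, limma adjusted p = 0.0177). Their median log2 difference was -0.96 beside -0.05 over all genes. The limit on regulatory and activation genes held for the naive-like CD4 cells only, and its part in these values was not tested. Of 9 naive and quiescence transcription factors, 8 Gimap genes and 15 genes of T cell receptor signalling none passed. At an unadjusted p below 0.05, 140 genes differed. The count fell to 2 without macrometastasis Tim3-KD and was 33 when cells with at least 10 UMIs of B cell, neutrophil, monocyte or Kupffer cell markers were left out. When the classes were called on UMIs, 18 genes differed, and 3 of the 15 were among them.

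Against regulatory or activated CD4 cells 1018 genes were tested in 5 libraries, and 21 were higher and 97 lower in the naive-like cells (2.06% and 9.53%, together 11.6%). The median over all genes was -0.24, and scaling to the trimmed mean in place of all UMIs gave 42 higher and 65 lower, so the balance of the 2 directions rests on the scaling. Higher were Igfbp4, Pdlim4 (2.52), Atp1b1 (2.32), Tgfbr3 (2.21), Klhdc2 (2.10), Prf1 (1.86), Bach2 (1.78) and Satb1 (1.59, SE 0.17, limma adjusted p = 0.00216). Satb1 and Bach2 are transcription factors of resting T cells. Prf1 encodes perforin and was the 1 higher gene of the 21 effector and memory genes tested. Lower were 6 of them, S100a10, Lgals1, Crip1, S100a4, Ahnak and Cxcr3, and the list median was -0.63 beside -0.24 over all genes. Satb1 was at 467, 272, 393, 320, 383 and 407 CPM in the 6 libraries, above the 109 to 166 CPM of the regulatory or activated cells.

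Lower were 4 of the 5 regulatory genes tested, Il2ra (-3.06), Tnfrsf18 (-2.06), Tnfrsf9 (-5.12) and Il10 (-3.64), and both helper genes, Rora (-2.21) and Maf (-2.05). The rule asked for low values of related genes, so this direction was in part set by it. The lowest genes further included Ly6a, Bcl2l15, Nrp1, Cxcl10, Myo1e and Sapcd1. Tnfrsf9, Il10 and these 6 genes had no UMI in 2 to 4 of the 5 libraries of the naive-like class, so their fitted values are no bound. Gata3 (-1.39) and Tox (-1.74) were lower too. Gata3 and Bcl2l15 overlap another gene on the same strand, which leaves their level less certain. Il7r and Dusp10 were higher. Of 9 surface and other naive genes tested 3 were higher (Igfbp4, Pdlim4 and Dusp10) and 1, Slamf6 (-0.96), lower. Leaving out 1 library gave 24 to 138 genes in all, with 24 without macrometastasis Tim3-KD, 44 without macrometastasis Ctrl, 51 without micrometastasis Ctrl and 76 without AT Ctrl.

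Against the other T cells 1300 genes were tested in 6 libraries. In the naive-like cells 66 were higher and 147 lower (5.08% and 11.3%, together 16.4%), and trimmed-mean scaling gave 107 and 122. Trib2 (4.30), Tgfbr3 (4.12), Pdlim4 (3.93), S1pr1, Igfbp4, Gpr146 (2.80), Bach2 (2.63) and Itga6 were the highest. Itga6 overlaps another gene, and Tgfbr3 had no UMI in 3 libraries of the other class and Gpr146 and Bach2 in 1. Of the 9 naive transcription factors 3 were higher, Bach2, Satb1 (1.44) and Ets1, and 3 of the 5 homing and survival receptors, S1pr1, Il7r and Il6st.

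Effector genes made the other side. Of 23 effector and memory genes 19 were lower, with a median of -2.30 beside -0.24 over all genes. Gzma (-4.40), Ccl3 (-4.04), Gzmb (-3.95) and Nkg7 (-2.67, SE 0.33, limma adjusted p = 0.00169) encode granule proteins and a chemokine. Nkg7 was at 94.9, 126, 383, 493, 125 and 202 CPM in the class, below the other T cells in every library. Tnfrsf9, Klre1, Nrgn, Klrc1 and Csf1 completed the 8 lowest, and of all 8 only Ccl3 and Gzmb had UMIs in every library of the naive-like class. Immediate early genes were lower in 4 of 14 (Nr4a2, Ier3, Egr1, Dusp2) and none higher. The number of genes was 137 without micrometastasis Ctrl, 125 without macrometastasis Ctrl and 112 without macrometastasis Tim3-KD, in place of 213.

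**Figure D4:**
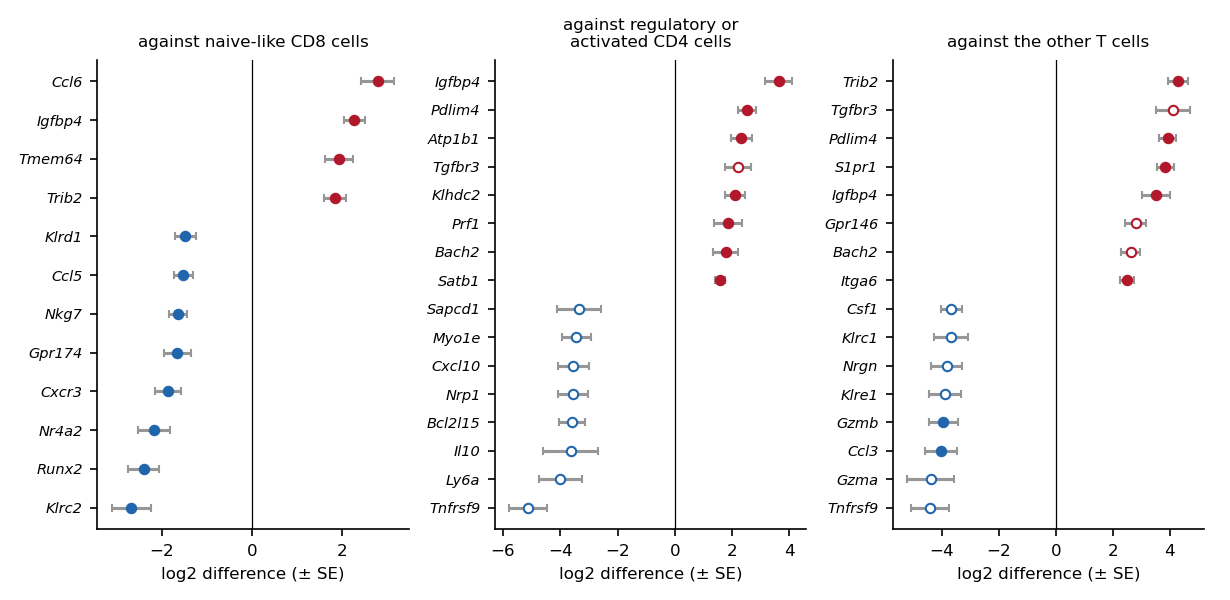
Log2 difference (naive-like CD4 cells minus the other class, with SE, from limma with libraries paired) of the 8 highest and 8 lowest genes past the threshold, for naive-like CD8 cells (4 genes higher), regulatory or activated CD4 cells and the other T cells. Open points had no UMI in at least 1 library of a class. Igfbp4 is among the highest genes in all 3 panels, at 2.27, 3.63 and 3.51.

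The study's main comparison asks what differs between Tim3-KD and Ctrl. Here it is made within the class, from UMIs summed over its cells. A gene was called when the sums, with 0.5 UMI added, differed at least 2-fold and held at least 50 UMIs together. Large ratios could come from a single cell. Of the 59 genes called in micrometastasis 25 had over 50% of the UMIs of the higher library in 1 cell, of the 62 in macrometastasis 27, and of the 48 in AT 6. In micrometastasis Ctrl 1 cell held 99.3% of the UMIs of Elane, Ctsg and Prtn3, genes of immature neutrophils. In macrometastasis Ctrl 1 cell held 99.3% of those of Camp and 99.2% of those of Ngp. In micrometastasis Tim3-KD 1 cell held all 71 UMIs of Cxcl1 and 99.0% of those of Il1b. Cells with at least 10 UMIs of B cell, neutrophil, monocyte or Kupffer cell markers numbered 0 and 2 in AT, 2 and 2 in micrometastasis and 6 and 7 in macrometastasis, and each count is also given without them.

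In AT, 222 genes were tested, of which 28 were higher and 20 lower in Tim3-KD (12.6% and 9.01%, together 21.6%). Without the marked cells 23 were higher and 23 lower. Of the 20 genes lower in Tim3-KD all but Trdc and Top2a were read in at least 9 cells of either library. Nr4a1, an immediate early gene that follows T cell receptor signalling, was at 230 CPM in 21 of 35 cells in Ctrl and at 57.6 CPM in 19 of 44 cells in Tim3-KD, a log2 ratio of -1.99 (ratio 0.252, 95% counting interval 0.162 to 0.38). In the other T cells and B cells of the same libraries it differed by 0.11 and 0.44 on the log2 scale. Rgs2, a regulator of G protein signalling, was at 423 and 110 CPM (log2 -1.94), and in the other T cells it was at 702 and 336 CPM (log2 -1.06) and in B cells it differed by -0.49. Of 16 lower genes that could be read in the other T cells 4 were at least 2-fold lower there as well, and of 16 that could be read in B cells 2. Dapl1, a gene of naive T cells, was at 281 and 72.0 CPM (log2 -1.96). Tmem64, Gadd45b, Irf1 and Igtp followed, at log2 -1.93 to -1.49. Of 10 interferon genes tested 2 were lower, Irf1 and Igtp, and 1 was higher, Irf7, at 33.9 and 73.6 CPM in 8 and 13 cells. The median of the list was -0.77 beside -0.04 over all genes. Igtp overlaps another gene. Trdc, lowest of all, had 91.4% of its UMIs in 1 cell of AT Ctrl, and Top2a, a gene of dividing cells, 90.3%.

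Higher in AT Tim3-KD were 8 of the 13 effector and memory genes tested, at a background of 12.6%, with a list median of 1.54. Ccl5, a chemokine gene of effector T cells, had 13 UMIs in 2 cells of Ctrl and 429 in 12 cells of Tim3-KD (44.0 and 686 CPM). Ahnak was at 64.4 and 219 CPM in 7 and 19 cells, S100a4 at 30.5 and 219 CPM in 4 and 10 cells, Il2rb at 50.8 and 152 CPM in 4 and 12 cells, and Lgals1 at 173 and 401 CPM in 15 and 22 cells. Gzma and Ccl4 had no UMI in Ctrl. With a floor of 3 UMIs in Ctrl, Ccl4 was at least 9.13-fold higher. Gzma had 98.6% of its UMIs in 1 cell and Itgb1 69.6%. Some of these values depended on how the cells were called. When the cells were called on UMIs, Ccl5 stood at -0.14 and Il2rb at -0.82 on the log2 scale.

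Some of the highest ratios in AT were not particular to the class. Ltb, the gene of lymphotoxin beta, was at 71.1 and 417 CPM (log2 2.52), and in B cells it was at 81.9 and 464 CPM. Klf2, a transcription factor of quiescent T cells, was at 244 and 515 CPM (log2 1.07). In the other T cells it differed by 1.12 and in B cells by 0.96. Mrps24 (log2 3.00), Gm47283 (2.82) and Apoe (4.47), the gene of a plasma apolipoprotein, were higher in B cells too, by 3.64, 1.20 and 2.12. Mrps24 overlaps another gene on the same strand. Of the 20 higher genes that could be read in B cells 6 were at least 2-fold higher there as well, and of 27 that could be read in the other T cells 9. The deeper sequencing of AT Tim3-KD moved with these values, and its part in them was not tested.

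In micrometastasis 298 genes were tested, 29 higher and 30 lower in Tim3-KD (9.73% and 10.1%, together 19.8%). Without the marked cells 17 were higher and 19 lower. Several of the higher genes are known from effector cells. Ifng was at 46.0 CPM in 12 of 126 cells in Ctrl and at 366 CPM in 17 of 56 cells in Tim3-KD, a ratio of 7.87 (5.2 to 12.5). In the other T cells of the same libraries it differed by -0.18 on the log2 scale. Il2rb was at 132 and 400 CPM in 32 and 31 cells (ratio 3.03, 2.24 to 4.11), Gzmb at 47.6 and 198 CPM in 9 and 11 cells (4.14, 2.59 to 6.78), and Id2, a regulator of effector T cells, at 209 and 451 CPM (2.16, 1.66 to 2.8). Of 18 effector genes 4 were higher and 2, Gzma and Ccl3, lower. Gzma had 195 UMIs in 10 cells of Ctrl and 1 in Tim3-KD. Nfkbiz (log2 1.81), Icam1 (1.54), Sytl3 (1.53), Bhlhe40 (1.31) and Gimap3 (1.32) were higher as well.

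Of the naive gene lists 1 gene each was lower in micrometastasis Tim3-KD and none higher, at a background of 10.1%. These were Bcl11b of 5 naive transcription factors, S1pr1 of 5 homing and survival receptors and Igfbp4 of 10 surface and other naive genes, with list medians of -0.56, -0.60 and 0.42 beside 0.08 over all genes. Igfbp4 was at 221 and 96.8 CPM in 57 of 126 and 14 of 56 cells (ratio 0.446, 0.269 to 0.684), and S1pr1 at 189 and 84.2 CPM in 69 and 11 cells (0.456, 0.263 to 0.72). Bcl11b, a transcription factor of the T lineage, was at 84.4 and 29.5 CPM (log2 -1.43). Dgka (-1.71), which dampens T cell receptor signalling, and Cd55 (-1.68) were lower too. After thinning to 1500 UMIs, S1pr1 was in 27.2% and 9.91% of the cells and Nkg7 in 13.5% and 38.5%.

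Some of these values changed when the cells with only 1 naive gene were left out and others did not. Among cells with 2 or 3 naive genes, Igfbp4 differed by -0.51 and S1pr1 by -0.53 on the log2 scale in place of -1.16 and -1.13, and neither reached 2-fold. Nkg7 turned from 0.36 to -1.35 and Il7r from -0.17 to 0.29. The Nkg7 level of Ctrl came from 126 UMIs in 6 cells, and the share of cells with Nkg7 ran the other way, 7.06% in Ctrl and 26.1% in Tim3-KD. Of the effector genes, Ifng had 1 UMI in the 85 such cells of Ctrl and 1 in the 23 of Tim3-KD. Il2rb was at 49.5 CPM in 9 cells and 62.2 CPM in 4, Gzmb had 4 UMIs in 3 cells and 9 UMIs in 2 (log2 3.19). Id2 was at 109 CPM in 27 cells and 240 CPM in 11 (log2 1.15), Nfkbiz at 70.1 and 276 CPM (log2 1.98) and Gimap3 at 204 and 391 CPM (log2 0.95). In that narrower set 42 of 166 genes were called. Ltb (log2 -2.02) and Hmgn1 (-2.10) were lower in the class, and in B cells they differed by -3.07 and -1.82, so neither is particular to it.

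In macrometastasis the 2 libraries were most alike. Of 505 genes 16 were higher and 46 lower in Tim3-KD (3.17% and 9.11%, together 12.3%), and 11 and 8 without the marked cells. Igfbp4 was at 175 and 221 CPM (ratio 1.26, 1.02 to 1.57), S1pr1 at 235 and 283 (1.21, 1.0 to 1.45), Il7r at 468 and 557 (1.19, 1.04 to 1.36) and Satb1 at 383 and 407 (1.06, 0.916 to 1.24). None reached 2-fold. None of 18 genes of T cell receptor signalling, 8 Gimap genes, 6 homing and survival receptors or 12 interferon genes was called in either direction.

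Some of the differences in macrometastasis lay in few cells. Ifng was at 24.1 CPM in 11 of 154 cells in Ctrl and at 85.6 CPM in 14 of 161 in Tim3-KD (ratio 3.49, 2.18 to 5.99), and in the other T cells it differed by 0.31 on the log2 scale. When the cells were called on UMIs it stood at 0.06. Ccl4 was at 135 and 413 CPM in 10 and 12 cells. Mki67, Pclaf and Ube2c, genes of dividing cells, were higher on 3 cells each in Tim3-KD, each with over 50% of its UMIs in 1 cell. Lower were S100a4, a calcium-binding protein gene of memory and effector cells, at 332 and 52.5 CPM in 24 and 12 cells (log2 -2.65), and Cxcr6, a receptor gene of liver-resident T cells, at 50.4 and 24.0 CPM (log2 -1.06). Without the marked cells S100a4 was at 190 and 56.6 CPM. It overlaps another gene on the same strand. Others were spread over more cells, such as Imp3, read in 41 cells of Ctrl and 15 of Tim3-KD with 4.17% of its UMIs in 1 cell. Lmna (-1.56), Id3 (-2.01) and Imp3 (-1.41) were lower in the class and, by -1.39, -2.31 and -1.81, in the other T cells. Crip1 stood at the threshold, at 749 and 373 CPM.

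**Figure D5:**
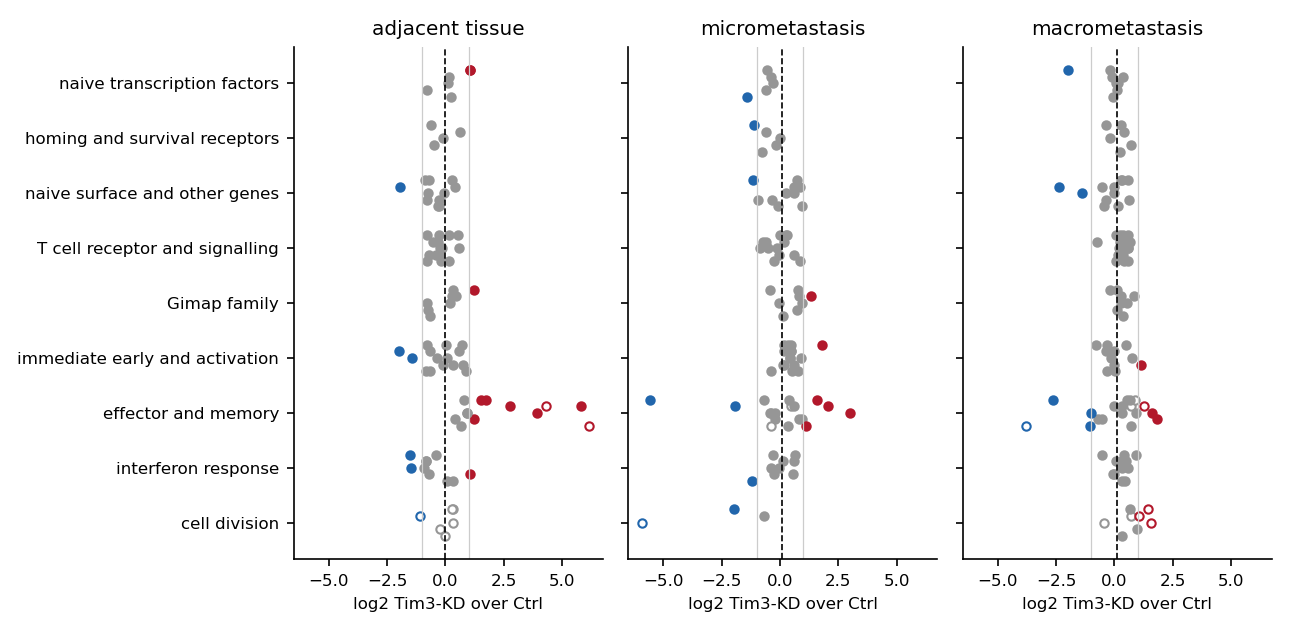
Log2 ratio of Tim3-KD over Ctrl within naive-like CD4 cells for the genes of 9 lists, 1 point per gene with at least 50 UMIs, at the 3 sites (red, at least 2-fold higher; blue, at least 2-fold lower; grey, neither; open, over 50% of the UMIs of the higher library in 1 cell; dashed line, median of all genes). The effector and memory list lies to the right in AT, with 8 of 13 genes higher, and is split in micrometastasis and macrometastasis.

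Set side by side, the 3 sites gave different values for the same markers. Igfbp4 differed between Tim3-KD and Ctrl by -0.71 on the log2 scale in AT, -1.16 in micrometastasis and 0.33 in macrometastasis. S1pr1 differed by -0.61, -1.13 and 0.27, Il7r by -0.11, -0.17 and 0.25, Satb1 by -0.78, -0.29 and 0.09, and Klf2 by 1.07, -0.56 and -0.17. The T cell receptor list had no called gene at any site, with medians of -0.27, -0.06 and 0.28 over 16, 13 and 18 genes. A test over the 3 sites was added after these values had been seen, with limma on the 6 libraries and site as a block. Site and day cannot be told apart in it, and it gives 1 mean difference over sites whose values differ. Of 736 genes 2 were lower with Tim3-KD and none higher (together 0.272%), and 27 had an unadjusted p below 0.05. Both, Prtn3 and Serpinb1a, are known from neutrophils. With Ctrl given before Tim3-KD, Prtn3 had 14 and 0 UMIs in AT, 1567 and 7 in micrometastasis and 252 and 11 in macrometastasis, with 99.3% and 98.8% of the micrometastasis and macrometastasis Ctrl UMIs in 1 cell each. Serpinb1a had 4 and 0, 131 and 2, and 103 and 5 UMIs, with 92.4% and 95.1% in 1 cell. Their log2 differences, -5.53 (SE 0.47, limma adjusted p = 0.00383) and -4.23 (SE 0.47, limma adjusted p = 0.0123), include a library without a UMI and are no bound. When the marked cells were left out, limma called 0 genes of 628, with 32 at an unadjusted p below 0.05. Igfbp4 differed by -0.51 (SE 0.38), S1pr1 by -0.49 (SE 0.37) and Ifng by 1.49 (SE 0.61), and none of these passed (limma adjusted p = 0.99 for each).

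Havcr2 itself, the gene lowered in the tumour cells, was read in 1 of the 576 cells.

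The Ctrl libraries were compared between sites. From AT to micrometastasis 239 genes were tested, 40 higher and 10 lower (16.7% and 4.18%, together 20.9%), and 25 and 6 without the marked cells. Of 13 effector and memory genes 10 were higher in micrometastasis, and the list median was 1.34 beside 0.17 over all genes. Ccl5 was at 44.0 CPM in 2 of 35 cells in AT and at 1601 CPM in 19 of 126 in micrometastasis (ratio 35.0, 21.2 to 68.5). Nkg7 was at 94.9 and 383 CPM, and Ccl4 and Gzma had no UMI in AT and 254 and 195 in micrometastasis, at least 38.3-fold and 29.4-fold higher with a floor of 3 UMIs. Xcl1, the gene of lymphotactin, was at 13.6 and 212 CPM in 2 and 19 cells, and Ncr1, a natural killer receptor gene, had 0 and 60 UMIs. Cells with only 1 naive gene were 5.71% of the class in AT and 32.5% in micrometastasis. Among cells with 2 or 3 naive genes Ccl5 had 1 UMI in 1 of 33 cells in AT and 142 UMIs in 3 of 85 in micrometastasis. Nkg7 was at 70.1 and 260 CPM (log2 1.86) and was detected in 12.1% and 7.06% of these cells. The levels of these 2 genes were thus still over 2-fold higher in micrometastasis, on few cells, and the share of cells with Nkg7 was not. Other effector genes went the other way in this narrower set. Il2rb stood at -0.11 and Id2 at -0.53 on the log2 scale. Gzmb stood at -0.77 on 4 and 4 UMIs and Ifng at -3.82 on 12 and 1. When the cells were called on UMIs Il2rb turned from 1.34 to -0.80 and Ccl5 stood at 0.22. Lower in micrometastasis were Myc, Batf, Tmem71, Tob1, Kif21b and Ifi47 (log2 -1.54 to -1.10). Tob1 restrains T cell division, and Ifi47 overlaps another gene. Of the 10 lower genes 5 were at least 2-fold lower in the other T cells as well, among them Tob1 (-1.35) and Ifi47 (-1.48), and 0 of 8 in B cells. Igfbp4, S1pr1 and Il7r were not called, at -0.45, -0.61 and 0.38.

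From micrometastasis to macrometastasis, at a later day, 382 genes were tested, 25 higher and 27 lower (6.54% and 7.07%, together 13.6%), and 6 and 22 without the marked cells. Of 19 effector and memory genes 5 were lower, Ccl4, Ccl5, Nkg7, Gzma and Prf1, and 1, Anxa1, higher with 87.8% of its UMIs in 1 cell. Nkg7 was at 383 and 125 CPM in 22 of 126 and 21 of 154 cells, Ccl5 at 1601 and 668 CPM and Xcl1 at 212 and 35.1 CPM. Ccl5 turned to 0.43 on the log2 scale among cells with 2 or 3 naive genes. Higher were Bach2, at 16.9 and 46.0 CPM in 10 and 32 cells (ratio 2.64, 1.38 to 5.88), Id3 with 12 and 73 UMIs, Jun at 183 and 429 CPM in 65 and 118 cells, and Gimap1 at 85.9 and 191 CPM in 43 and 91 cells. Jun differed by 1.32 on the log2 scale in B cells and Id3 by 2.52 in the other T cells of the same libraries. Gimap1 overlaps another gene. Genes of MHC class II (H2-Aa, H2-Ab1, H2-Eb1), higher in macrometastasis, had 47.6% to 59.1% of their UMIs in 1 cell.

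The gene groups of T cell identity were counted in the same way, beside 12.3% to 21.6% of all genes called per comparison. None of the 13 to 18 genes of the T cell receptor and its signalling was called in any of the 5 comparisons. Of the 8 Gimap genes, which encode small GTPases of lymphocyte survival, at most 1 was called in each, Gimap1 or Gimap3, a share near that of all genes. Gimap6 was at 478, 299, 347, 383, 367 and 469 CPM in the 6 libraries. Of 3 to 6 homing and survival receptors only S1pr1 was called, in micrometastasis, where it was 1 of 5 beside 19.8% of all genes. Of the CD4 and CD8 lineage genes, 1 to 3 were tested per comparison. Cd40lg was lower with Tim3-KD in AT, and Gata3 was lower in Ctrl micrometastasis than in Ctrl AT, each 1 of 3. Most regulatory and helper genes had too few UMIs to be read, and 0 to 2 per list were tested. From Ctrl micrometastasis to macrometastasis, Maf was higher, 1 of 2 helper genes, and Tnfrsf18, the 1 regulatory gene tested, was lower.

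Markers of other cells were measured in the class for each library. The AT, micrometastasis and macrometastasis matrices held 6, 6 and 8 of 12 neutrophil markers and 9, 7 and 10 of 10 for monocytes and macrophages. They held 4, 4 and 6 of 7 NKT-like markers, so sums of different sites can rest on different genes. Summed neutrophil markers were at 47.4 and 1.6 CPM in AT, 1873 and 505 in micrometastasis and 3330 and 45.6 in macrometastasis, with 90.8% to 98.8% of them in 1 cell in the 3 libraries above 500 CPM. Summed B cell markers were at 57.6, 157, 103, 451, 803 and 308 CPM. Those of monocytes and macrophages were at 196, 326, 391, 526, 1803 and 358 CPM, read in 46.4% to 77.3% of the cells, and in macrometastasis Ctrl 38.6% of them were in 1 cell. This list included Ccr2, Ly6c2, Ctss and Plac8, which were not used to mark cells, so these shares are no measure of monocyte RNA. Markers of natural killer cells were at 105, 272, 850, 623, 317 and 556 CPM, against 2264 to 3614 CPM in the other T cells. NKT-like markers were at 136, 118, 255, 425, 179 and 85.6 CPM, highest in micrometastasis Tim3-KD, where 55.4% of the cells had a UMI of them. Those of gamma-delta T cells were at 142, 48.0, 36.8, 33.7, 40.6 and 11.4 CPM, with 92.9% in 1 cell in AT Ctrl. In the other T cells these sums were 270 to 645 and 12.2 to 270 CPM. In micrometastasis Tim3-KD the class lay above the other T cells of its library on both, with 425 against 270 CPM for NKT-like and 33.7 against 12.2 CPM for gamma-delta markers, the latter on 8 UMIs in 3 cells. In micrometastasis Ctrl the class was also above them for gamma-delta markers, at 36.8 against 34.3 CPM, on 24 UMIs in 11 cells. Kupffer cell markers were at 0 to 98.1 CPM and hepatocyte markers at 0 to 60.8 CPM, both lowest in AT Ctrl. In AT Tim3-KD they were at 92.8 and 60.8 CPM, and Igkc, an immunoglobulin gene, was read in 22 of 44 cells, and in 2.86% to 6.49% of the cells in the other 5 libraries. The part of free RNA and of such cells in the results was not tested beyond the counts given without the marked cells.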

How the data were processed

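CD45+ cells were profiled with 10x Genomics chemistry in 6 libraries. Per the labels and methods, the authors trimmed reads (Trim Galore 0.4.3), mapped them with STAR 2.7.7a to GRCm38, counted UMIs over exons and introns, removed doublets with scrublet and kept variable genes. The deposited values are scores, scaled per gene within each of 3 site matrices (4486, 2669 and 2643 genes) and capped at 10. Tests for counts had been planned. The scores were therefore turned back into UMIs, of which at least 99.9983% lay within 0.05 of a whole number. At the cap (0.144% to 0.16% of detected values) they are lower bounds. Depth per library is given with the results.

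Members, gene lists and classes were chosen with earlier results of these data known. Pseudogenes, genes also held in combined features, ribosomal and mitochondrial genes and the rule genes were left out of tests, a choice made after seeing the data. Between libraries, ratios have exact conditional Poisson intervals and shares exact binomial ones; UMIs are molecules of cells that are not independent samples. Difference intervals combine the exact limits of both shares. Classes were compared with limma 3.58.1 (R 4.3.3) on log2 CPM of UMIs plus 0.5, in libraries with at least 20 cells of both classes and genes with at least 50 UMIs. Those p-values measure the spread between libraries of different groups. These were 4 against naive-like CD8 cells, 5 against regulatory or activated CD4 cells and 6 against the other T cells. A fit over sites, with site as a block, was added after seeing the data. Named were the rule and label genes, list genes and the 8 highest and 8 lowest genes per comparison. Others were named after their values were seen, because they were read in many cells or showed what other classes did. Analyses used Python 3.11.15 with numpy 2.4.6, scipy 1.17.1 and pandas 2.3.3. Alternatives changed thresholds, denominators, filters, scaling, the cells entered and the libraries left out. The statistics were tested on simulated data.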

Additional observations from a re-analysis of the deposited data

Results flagged for a closer look

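The difference in the share of all cells between Tim3-KD and Ctrl was 7.56 percentage points larger in AT than in micrometastasis, since the share was higher with Tim3-KD in AT and lower in micrometastasis. Among 11 genes compared over the sites (Igfbp4, S1pr1, Cd4, Il7r, Klf2, Satb1, Nkg7, Ifng, Ccl5, Il2rb and Ltb), 4 had opposite directions at 2 sites with counting intervals that excluded 1. The log2 ratio of Igfbp4 was lower by 1.04 in AT than in macrometastasis (a difference of -1.04) and differed by -1.49 between micrometastasis and macrometastasis. That of Klf2 was 1.63 higher in AT than in micrometastasis. For Ccl5 the ratio in AT exceeded that in micrometastasis by 4.12 and that in macrometastasis by 4.62, and for Ltb by 4.54 and 3.16. The direction of Ccl5 in AT turned when the cells were called on UMIs. Beyond these 11, genes at least 2-fold apart in opposite directions included Bcl11b (1.06 in AT and -1.43 in micrometastasis) and S100a4 (2.77 in AT and -2.65 in macrometastasis). Gzma, at -5.57 in micrometastasis, had no UMI in AT Ctrl. With a floor of 3 UMIs it was at least 11.6-fold higher in AT Tim3-KD, with 98.6% of its UMIs there in 1 cell. Each rests on 1 library per group, and none of these differences was tested. Ltb and Klf2 moved the same way in B cells of AT, and Ltb also in B cells of micrometastasis.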

How the results depend on the processing

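The direction of the share differences between Tim3-KD and Ctrl held under other thresholds. Of 50 alternatives of the shares 38 moved by less than the counting interval. In the order AT, micrometastasis and macrometastasis, the share of T cells differed by 15.9, -13.6 and -4.24 points, and of T and B cells, where both turned, by 0.909 in micrometastasis and 0.562 in macrometastasis. With cells without a Cd4 UMI left out it was 3.69 in AT, -0.491 in micrometastasis and, turned, 0.199 in macrometastasis. For Ctrl micrometastasis against AT the values were 8.3 of T cells, 3.11 of T and B cells and -0.424 without cells lacking Cd4, and for Ctrl macrometastasis against micrometastasis 4.3 and 2.98. With 2 or 3 naive genes these were -0.166, turned from 0.526, and 1.06 in place of 0.667, and with cells called on UMIs 0.0632 and 1.26.

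Counts of genes called between libraries followed the filters. In the order AT, micrometastasis, macrometastasis, Ctrl micrometastasis against AT and Ctrl macrometastasis against micrometastasis, they were 249, 212, 189, 189 and 144 at a minimum of 20 UMIs, 1538, 816, 811, 759 and 501 without one, 110, 133, 157, 92 and 127 at a fold of 1.5, and 99, 120, 161, 81 and 122 when the counting interval excluded 1. Leaving out cells with a UMI of Trdc, Klrb1c or Nkg7 gave 20, 26, 33, 16 and 21. In the last 4 of these comparisons, leaving out cells without Cd4 gave 33, 31, 28 and 31, leaving out the marked cells 36, 19, 31 and 28, and leaving out the top cell of each gene 34, 29, 23 and 28. Cells called on UMIs gave 92 in AT and 102 in macrometastasis, every feature of the matrix gave 100 in AT, and cells with 2 or 3 naive genes gave 33 for Ctrl micrometastasis against AT. The alternatives with Trdc, the marked cells, the top cell and the naive genes also hold fewer cells or UMIs. The choices of marked cells, top cell, naive genes, all features and T and B cells were made after seeing the data.

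Against naive-like CD8 cells limma gave 26 genes with 2 UMIs added, 9 at a minimum of 200 UMIs, 32 with voom weights and 33 without the marked cells, and 2 to 14 with 1 library left out. Leaving out 1 library gave 24 to 138 against regulatory or activated CD4 cells and 112 to 240 against the other T cells. Calling cells on UMIs turned Ccl5 (-0.14) and Il2rb (-0.82) in AT, Il2rb in Ctrl micrometastasis against AT (-0.80) and Nkg7 against regulatory or activated CD4 cells (0.12). Ccl5 in Ctrl macrometastasis against micrometastasis turned to 7.0 without cells lacking Cd4 and to 0.43 with 2 or 3 naive genes. Klf2 against naive-like CD8 cells, near 0 throughout, stood at 0.00 with 2 UMIs added and between -0.09 and 0.13 with 1 library left out (-0.08 without macrometastasis Tim3-KD). The cause of these changes was not tested. Of the other values of single genes 629 log2 ratios and 253 log2 differences kept their direction and size or call, 61 ratios moved, and 9 differences lost and 7 gained the call. A denominator without neutrophils was not run because S100a8 and S100a9, which were to define it, are not in the tables used here. Over the 3 sites, the number of genes between Tim3-KD and Ctrl was 2 with site as the replicate block (limma). It was 0 without the block (18 at an unadjusted p below 0.05), 0 without the marked cells (32), 0 without AT (25) and 9 without micrometastasis, where 3 were higher. With only 4 libraries left, 1 degree of freedom remains. Depth limits genes under 50 UMIs.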
